A study of Mus musculus with 14 samples.

Results

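Genes for copying DNA and for dividing the chromosomes were read in hematopoietic stem cells (HSC) and in whole bone marrow (WBM) of mice. The set holds 43 listed genes, 16 of S phase and 27 of mitosis. A listed gene was read where a probe set carried its symbol and no other, and 41 of the 43 were read (16 S-phase and 25 mitotic), out of 12393 genes read in this way. Ccnb1 and Cdca8 were not named singly by any probe set and have no value here. The 41 genes had 73 probe sets. For the 20 genes with more than 1, the one taken was that of highest average level across the 14 arrays.

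The mice were male C57Bl/6. The paper states that the mice of its p53 work had been back-crossed onto this background over several generations. Any DNA of another strain left in the mutants cannot be told apart from the p53 genotype here. WT HSC were taken at 2, 6, 12 and 21 mo of age and WT WBM at 2 mo. HSC of 2 p53 mutants were taken at 12 mo: p53+/m mice, which carry a truncated p53 allele with raised p53 activity beside a normal one, and p53+/- mice, which have 1 functional copy of p53. Each of the 7 groups had 2 arrays, A and B. HSC were sorted as side population cells, which pump out the dye Hoechst, with c-Kit and Sca-1 on their surface and no lineage markers. For HSC, the RNA of 2 to 5 mice went onto 1 array after linear amplification in 2 rounds. A p-value here therefore measures the spread between such pools and not between single mice. Levels are log2 GC-RMA values, in which 1 unit is a 2-fold difference. A level is compared between arrays for the same gene and not between genes, since probe sets differ in how brightly they read.

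A cell that is about to divide first loads the MCM helicase onto its replication origins, a step called licensing, and then fires the origins as cyclin E and CDK2 become active. Its genome is copied in S phase and the copies are pulled apart in mitosis by the spindle under the control of CDK1, the Aurora and Polo kinases and a checkpoint that holds back the anaphase-promoting complex (APC/C). S-phase genes are commonly switched on through E2F sites. Mitotic genes are commonly held down in resting cells by the DREAM complex, which binds the cell cycle genes homology region (CHR), often beside CCAAT boxes. HSC in adult marrow are mostly quiescent, whereas marrow as a whole holds many dividing precursors.

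These 2 kinds of sites were counted in the promoter windows that RefSeq gives for GRCm38.p6 (300 bases each, 250 before the transcription start and 50 after). A window was found for 34 of the 41 genes, 36 windows in all. The E2F letters searched were TTTCCCGC, TTTGGCGC, TTTCGCGC and TTTGCCGC, the CHR letters TTTGAA and TTCGAA, and the third motif CCAAT, each on both strands. E2F matches may overlap each other. An E2F match was present in 6 of 14 S-phase windows (42.9%), in 1 of 22 mitotic windows (4.55%, that of Cdk1) and in 2.26% of all 32851 windows. A CHR match was present in 16 of 22 mitotic windows (72.7%), in 2 of 14 S-phase windows (14.3%) and in 19.2% of all windows. All 16 mitotic windows with a CHR match also held CCAAT, a pairing seen in 7.52% of all windows. CCAAT alone was present in 64.3% of S-phase, 81.8% of mitotic and 37.4% of all windows. A match is a description of the letters, not a binding site, and a window with none says only that these letters are missing from it.

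Printed here are the 250 bases before the start of the 4 genes that passed a test within HSC (Mcm6, Mcm7, Mki67 and Pttg1) and of Ccnb2, one of the genes lowest in HSC against WBM. E2F, CHR and CCAAT letters of either strand are in capitals, and each sequence runs 5′ to 3′ on the strand of the gene.
Mcm6 (chr1:128359706-128359955, minus strand): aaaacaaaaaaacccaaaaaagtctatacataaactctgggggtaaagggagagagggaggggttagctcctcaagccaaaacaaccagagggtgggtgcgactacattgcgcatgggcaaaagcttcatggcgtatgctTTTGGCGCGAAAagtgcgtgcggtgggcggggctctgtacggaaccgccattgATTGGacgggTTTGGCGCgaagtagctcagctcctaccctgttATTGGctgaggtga
Mcm7 (chr5:138171884-138172133, minus strand): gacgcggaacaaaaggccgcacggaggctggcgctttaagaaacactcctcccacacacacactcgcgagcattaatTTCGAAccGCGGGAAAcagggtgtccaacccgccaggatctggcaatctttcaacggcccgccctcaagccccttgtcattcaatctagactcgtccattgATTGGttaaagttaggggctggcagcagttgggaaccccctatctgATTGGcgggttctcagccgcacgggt
Mki67 (chr7:135716380-135716629, minus strand): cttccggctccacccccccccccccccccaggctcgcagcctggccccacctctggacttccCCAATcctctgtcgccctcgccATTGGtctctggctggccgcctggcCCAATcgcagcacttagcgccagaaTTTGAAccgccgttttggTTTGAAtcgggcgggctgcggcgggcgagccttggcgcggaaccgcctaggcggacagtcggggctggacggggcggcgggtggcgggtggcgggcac
Ccnb2 (chr9:70421555-70421804, minus strand): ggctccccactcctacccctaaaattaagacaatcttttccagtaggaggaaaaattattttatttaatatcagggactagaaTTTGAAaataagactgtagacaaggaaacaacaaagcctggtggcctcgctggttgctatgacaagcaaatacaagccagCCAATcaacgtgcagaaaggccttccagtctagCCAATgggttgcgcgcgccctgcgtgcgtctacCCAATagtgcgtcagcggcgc
Pttg1 (chr11:43425982-43426231, minus strand): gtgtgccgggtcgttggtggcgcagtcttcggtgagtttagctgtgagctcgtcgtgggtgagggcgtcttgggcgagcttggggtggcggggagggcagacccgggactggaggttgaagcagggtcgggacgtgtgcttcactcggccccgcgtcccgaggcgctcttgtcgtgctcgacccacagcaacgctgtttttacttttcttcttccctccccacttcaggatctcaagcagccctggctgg
Mcm6 carries 3 E2F matches, 2 of which overlap on opposite strands and begin 110 and 106 bases before the start, with the other 47 bases before it. Mcm7, printed from the window of its 2 that lies further upstream, has an E2F match 165 and a CHR match 173 bases before the start. Mki67 has 2 CHR matches, 116 and 98 bases before the start, downstream of 3 CCAAT matches. Ccnb2 shows 1 CHR match at 167 bases and CCAAT at 87, 54 and 21 bases. The Pttg1 window holds none of these letters.

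The sorted cells carried HSC markers, of which 9 of 12 were higher in HSC of 2 mo than in WBM. Array medians lay between 3.93 and 4.10 over all probe sets. Arrays A and B of 1 group differed most at 12 mo in WT. There the median absolute difference over all genes was 0.25, against 0.06 to 0.10 in the other 6 groups. Some results on 12 mo arrays are therefore also given without them. Among the 41 genes, p53+/- array A stood apart from B: it was lower for 34 of 41 genes and for 15 of 16 S-phase genes, by a median of 0.49 and 0.67, whereas the median of all genes differed by −0.02.

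HSC were compared with WBM first, which asks how much of the division program of marrow is present in the stem cells. Levels of 39 of the 41 genes were lower on all 12 HSC arrays than on both WBM arrays, which holds for 18.2% of all genes. The exceptions were Mcm7 and Pttg1. By limma with an adjusted p under 0.05 and at least 2-fold, 33 of 41 genes were lower in HSC of 2 mo (10.7% of all genes were), 11 of 16 S-phase and 22 of 25 mitotic. None was higher (13.3% of all genes were). The median log2 difference was −2.15 for the S-phase genes and −4.28 for the mitotic genes, against −0.01 (−0.015) for all genes. Many of all genes read low in WBM. Among the 4252 genes at 7 or above on both WBM arrays, 1311 were lower on all 12 HSC arrays. Of these 4252, 1029 were called lower at 2 mo and 593 higher, and their median was −0.25.

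**Figure D1:**
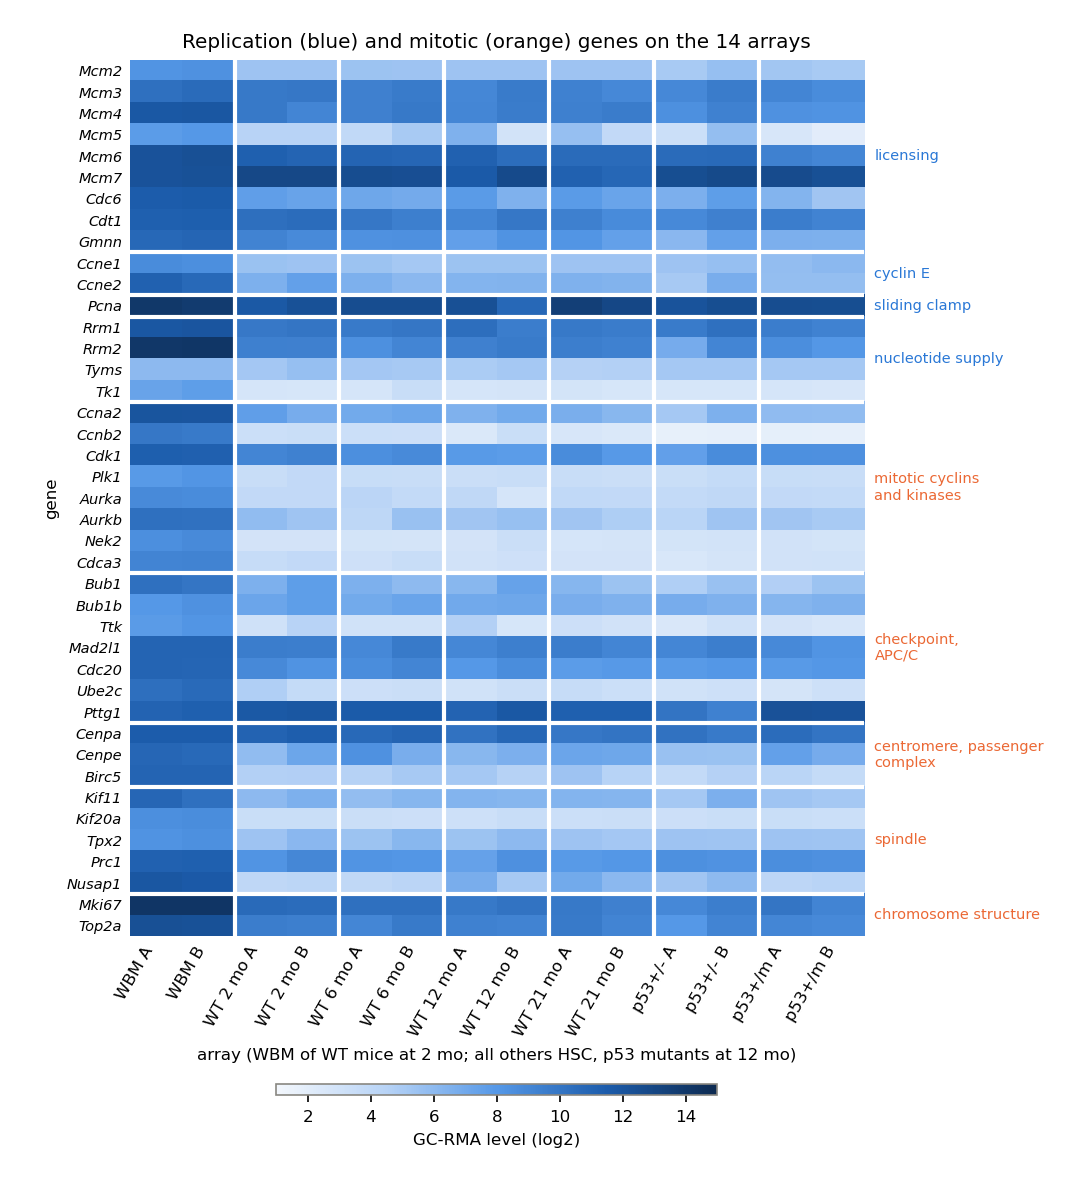
Log2 GC-RMA level of the 41 genes (rows, grouped by role) on the 14 arrays (columns, arrays A and B of each group). Colour runs from light (low) to dark (high) and is to be read along a row. The pair of WBM columns is darker than the HSC columns in every row but those of Mcm7 and Pttg1.

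Licensing genes were split. Cdc6, which loads the helicase, stood at 7.58 and 7.31 in HSC of 2 mo and at 11.45 and 11.51 in WBM (−4.04, SE 0.43, adjusted p = 0.00136). Gmnn, which encodes the licensing inhibitor geminin, stood at 9.15 and 8.78 against 10.78 and 10.95 (−1.89, SE 0.32, adjusted p = 0.00811). HSC and WBM did not overlap for either gene.

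The MCM helicase subunits did not move as one block. Mcm2 stood at 5.41 and 5.42 against 8.21 and 8.33 (−2.86, SE 0.05, adjusted p = 4.90e-07), and its 8 WT HSC values lay within 5.38 to 5.44. A second probe set of Mcm2 gave −3.04 with a far larger adjusted p of 0.0118. Mcm4 (−2.34, adjusted p = 0.00317) and Mcm6 (−1.11, adjusted p = 0.0180) were also lower, and Mcm3 (−0.61, adjusted p = 0.173) and Mcm5 (−3.47, SE 1.21, adjusted p = 0.102) did not pass. Mcm7 went the other way, at 12.86 and 12.82 in HSC of 2 mo and 12.15 and 12.22 in WBM, but by less than the threshold (0.66, SE 0.33, adjusted p = 0.268). The direction depended on the probe set, as its others gave 0.60, −0.50 and −0.445 (adjusted p = 0.201, 0.740 and 0.0875). Cdt1, which brings MCM to origins, was 0.84 lower with an adjusted p of 0.171. On another of its 3 probe sets it was 2.65 lower (adjusted p = 0.00107), and the last read 3.145 in HSC of 2 mo and 3.163 in WBM.

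Genes that act as S phase begins and runs were lower as well. Ccne1 and Ccne2, the E cyclins, differed by −3.16 (SE 0.11, adjusted p = 1.50e-05) and −3.91 (SE 0.34, adjusted p = 6.12e-04). Ccne2 stood at 6.55 and 7.48 in HSC and at 11.14 and 10.70 in WBM. Pcna, the sliding clamp of the DNA polymerases, stood at 11.70 and 12.23 against 14.01 and 13.77 (−1.93, SE 0.52, adjusted p = 0.0432). The call of Pcna was lost without any 1 WBM array or HSC array of 2, 6 or 21 mo and kept without 12 mo A or B.

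Of the 4 nucleotide supply genes, 3 were lower. Tk1, thymidine kinase, stood at 2.72 and 2.69 against 7.30 and 7.62 (−4.76, SE 0.26, adjusted p = 8.88e-05). Rrm2, the cell cycle regulated subunit of ribonucleotide reductase, stood at 9.39 and 9.33 against 14.03 and 14.07 (−4.69, SE 0.21, adjusted p = 4.14e-05), and its constant partner Rrm1 differed by −1.96 (adjusted p = 0.00484). The Rrm2 value comes from a probe set of the x type, whose probes can match other transcripts, and its other 2 probe sets gave −7.30 and −7.67, with HSC means of 3.37 and 4.75. Tyms, thymidylate synthase, differed by −0.58 (adjusted p = 0.0576).

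All 8 mitotic cyclin and kinase genes were lower in HSC of 2 mo. Ccnb2, a B-type cyclin, stood at 3.30 and 3.44 in HSC and at 9.90 and 9.72 in WBM (−6.44, SE 0.30, adjusted p = 4.98e-05). Nek2, a centrosome kinase, stood at 2.89 and 2.90 against 8.53 and 8.82 (−5.78, SE 0.18, adjusted p = 8.43e-06). Cdca3, a trigger of mitotic entry, stood at 3.58 and 3.87 against 9.10 and 9.15 (−5.40, SE 0.14, adjusted p = 4.30e-06), while its other 2 probe sets had means of 1.38 to 1.52 in HSC of 2 mo and WBM alike. Cdk1, the kinase that drives mitotic entry, stood at 9.09 and 9.27 against 11.28 and 11.21 (−2.06, SE 0.25, adjusted p = 0.00212). The rest of this group, Ccna2, Plk1, Aurka and Aurkb, differed by −4.28 to −4.90.

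Of the 7 checkpoint and APC/C genes, 5 were lower. Ube2c, the ubiquitin-conjugating enzyme of the APC/C, stood at 4.73 and 3.69 against 10.40 and 10.65 (−6.32, SE 0.34, adjusted p = 8.84e-05). Its activator Cdc20 differed by −2.43, and the checkpoint genes Ttk, Bub1 and Mad2l1 by −4.25, −3.04 and −1.46. Bub1b did not pass (−0.71, adjusted p = 0.0598). Pttg1, which encodes securin, the inhibitor of separase that APC/C destroys at anaphase, stood at 11.71 and 11.78 in HSC and at 11.06 and 11.25 in WBM (0.59, SE 0.22, adjusted p = 0.117). On another of its 3 probe sets Pttg1 was higher in HSC of 2 mo at 6.99 against 5.82 (1.17, adjusted p = 0.0172). The last gave 0.29 (adjusted p = 0.515).

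All 5 spindle genes were lower, as were 2 of the 3 genes of the centromere and passenger complex. Nusap1, a spindle microtubule-binding protein, had the largest difference among the probe sets read, at 4.04 and 4.20 against 11.82 and 11.66 (−7.62, SE 0.55, adjusted p = 3.00e-04). Its second probe set read low everywhere (3.22 in HSC and 3.86 in WBM), and with the median of its probe sets the difference was −4.13, also called. The second probe set of Ccna2 gave −7.67, at means of 3.03 and 10.70. Birc5, survivin of the chromosomal passenger complex, stood at 4.66 and 4.67 against 10.98 on both WBM arrays (−6.32, SE 0.35, adjusted p = 1.01e-04). Cenpe (−4.30), Kif20a (−5.16), Kif11 (−4.34), Prc1 (−2.64) and Tpx2 (−2.58) were lower as well. Cenpa, the histone H3 variant that marks centromeres, differed by −0.27 only (adjusted p = 0.610).

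Mki67, the common proliferation marker that coats mitotic chromosomes, stood at 10.64 and 10.53 against 14.13 and 14.16 (−3.56, SE 0.16, adjusted p = 4.69e-05), and Top2a, which untangles the copied DNA, differed by −2.75 (adjusted p = 0.00112). All 41 genes read 5 or above on both WBM arrays, and 26 did so on all 12 HSC arrays. Tk1, Ccnb2, Plk1, Aurka, Nek2, Cdca3, Ttk, Ube2c and Kif20a read below 5 on every HSC array. Some of these lay in a narrow range over all 12 HSC arrays, 2.60 to 3.51 for Tk1, 2.745 to 3.39 for Nek2 and 3.23 to 3.46 for Kif20a. A level below such a range may not show on the array, so these differences may be smaller than the true ones.

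**Figure D2:**
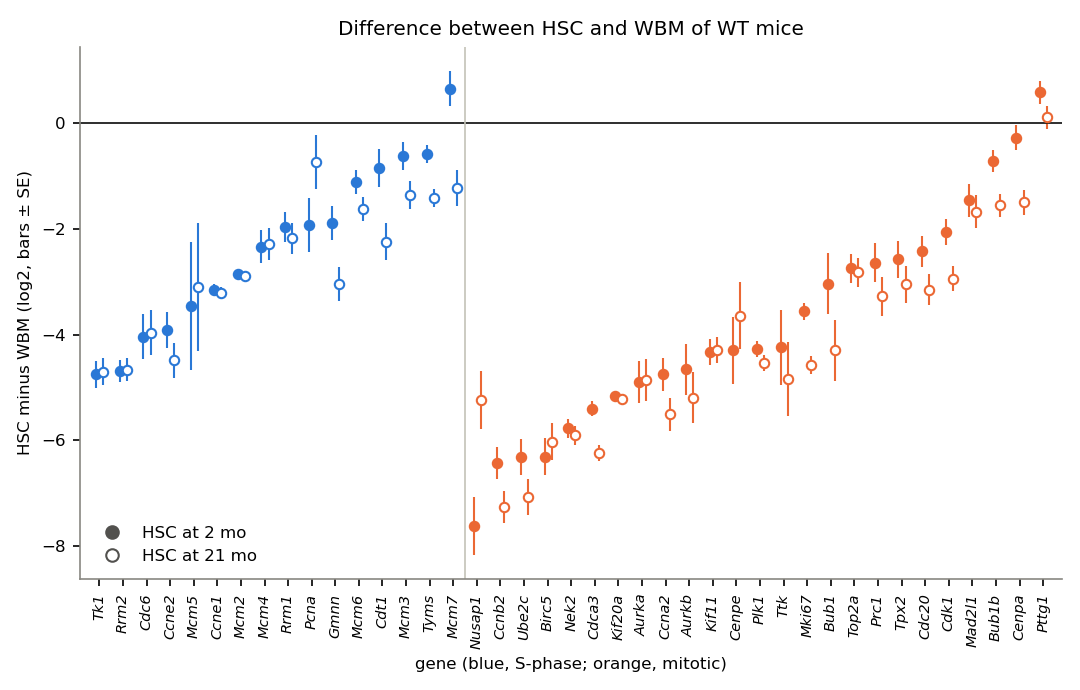
Log2 difference between WT HSC and WBM for each of the 41 genes (points, with bars of 1 SE), at 2 mo (filled) and 21 mo (open), S-phase genes in blue on the left and mitotic genes in orange on the right, sorted by the 2 mo difference. At 2 mo the differences run from −4.76 (Tk1) to 0.66 (Mcm7) among S-phase genes and from −7.62 (Nusap1) to 0.59 (Pttg1) among mitotic genes.

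The gap to WBM held at every age of HSC. At 6 mo 34 genes were lower (10.3% of all genes), at 12 mo 36 (9.36%) and at 21 mo 37 (8.49%). None was higher at any of these ages, where 12.8%, 11.3% and 9.76% of all genes were. The S-phase count went from 11 at 2 and 6 mo to 13 at 12 and 21 mo, and the mitotic count from 22 to 23, 23 and 24. These 4 comparisons share the WBM arrays, and the WBM mice were 2 mo old, so at 6, 12 and 21 mo tissue and age differ together. At 21 mo the largest mitotic differences were those of Ccnb2 (−7.27), Ube2c (−7.08) and Cdca3 (−6.25), that of Mki67 was −4.58 and that of Cdk1 −2.94. Pcna was called at 2 and 12 mo (−2.37) and not at 6 mo (−1.37) or 21 mo (−0.73). Its 12 mo difference was −3.15 without 12 mo A and −1.58 without 12 mo B, called both times, and the call was lost without either WBM array.

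Genes of the same processes outside the set were read as well. At 2 mo, 23 of 41 other origin and fork genes were lower and 1 was higher, and 38 of 66 other genes of mitosis were lower and 4 higher. Of all genes, 10.7% were lower and 13.3% higher. The largest of these falls were in Cenpf, a kinetochore protein, at 3.38 in HSC and 11.44 in WBM (−8.06, adjusted p = 4.91e-06), Aspm, of the spindle poles (−6.74), the CDK1-activating phosphatase Cdc25b (−6.54) and Gins1, of the replicative helicase (−5.37). Higher in HSC were the clamp loader subunit Rfc3 (1.60), the APC/C subunits Anapc2 (1.57), Anapc7 (1.501) and Cdc16 (1.09) and the kinetochore protein Zwint (1.54). Among 14 E2F, RB and DREAM regulators, 5 were lower, with E2f8, a repressor E2F that is itself made in cycling cells, at 8.54 against 12.24 (−3.69, adjusted p = 4.82e-04), and Rb1 (−2.96), Mybl2 (−2.59) and Rbl1 (−2.38) among them. Lin37, a subunit of DREAM, was higher (2.62, adjusted p = 0.00310).

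WBM also holds the lineage cells that the HSC sort removes. At 2 mo, 8 of 9 erythroid, 12 of 12 neutrophil, 6 of 7 monocyte, 8 of 10 B lineage and 2 of 6 T and NK markers were lower in HSC, and the monocyte marker Cd14 was higher. The summed erythroid signal was 16.20 and 16.19 in WBM and 9.23 to 10.78 on the HSC arrays, and the summed neutrophil signal 17.39 and 17.47 against 8.67 to 12.18, both as log2 of the sum. The monocyte sums were 15.26 and 15.30 against 10.70 to 11.93, and the B lineage sums 12.80 and 12.73 against 6.13 to 8.26. Alas2 and Klf1, which define erythroid cells, read 1.45 to 1.88 on all HSC arrays and 9.16 or above in WBM. In bulk RNA, fewer dividing cells and less RNA of a gene in each cell cannot be told apart, and the part of the lineage cells in these differences was not tested. The 5′ control probe set for 18S ribosomal RNA also differed, at 10.91 and 10.88 in HSC of 2 mo and 5.325 and 5.14 in WBM, and its part was not tested.

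**Figure D3:**
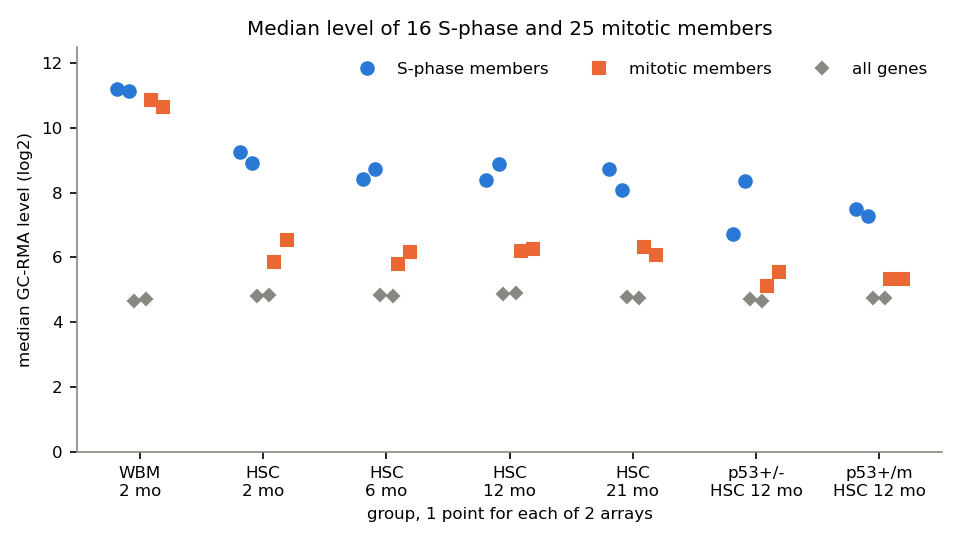
Median log2 GC-RMA level of the 16 S-phase genes (blue circles), the 25 mitotic genes (orange squares) and all 12393 genes (grey diamonds) on each array, 2 arrays per group. Values are to be compared within a colour. The S-phase median drops from 11.2 and 11.1 in WBM to between 6.71 and 9.27 in HSC and the mitotic median from 10.9 and 10.7 to between 5.12 and 6.54, while the median of all genes stays between 4.65 and 4.91.

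Age was examined in WT HSC with a quadratic trend over the 8 arrays, which asks whether the division genes move as HSC age from 2 to 21 mo. On the probe sets read, 2 of the 41 genes fell, Mcm7 and Mki67 (2.04% of all genes fell). None of the 41 rose in limma (1.46% of all genes rose), although another probe set of Rrm2 did. Nusap1 was higher at 2-fold with an unadjusted p of 0.00585 in limma. An unadjusted p under 0.05 was seen for 14 genes (23.3% of all genes had one). The median log2 change was −0.12 for S-phase genes and −0.46 for mitotic genes, against −0.02 for all genes. A change in either direction of less than 1 log2 unit could not be called by this rule.

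Mcm7 stood at 12.86 and 12.82 at 2 mo, 12.53 and 12.42 at 6 mo, 11.60 and 12.68 at 12 mo and 11.13 and 10.80 at 21 mo. It fell by 1.82 (SE 0.32, adjusted p = 0.0462), and the 21 mo arrays lay below all others of WT HSC and below WBM. Another 2 of its probe sets also fell (−1.004, adjusted p = 0.0283, and −2.20, adjusted p = 0.0225), while the last gave −0.71 (adjusted p = 0.634). The call was lost without any 1 array of 2, 6 or 21 mo (−1.96 to −1.65, adjusted p = 0.0880 to 0.198) and kept without 12 mo A or B. With both 12 mo arrays left out Mcm7 fell by 1.88.

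Mki67 stood at 10.64 and 10.53 at 2 mo, 10.27 and 10.32 at 6 mo, 9.80 and 10.10 at 12 mo and 9.79 and 9.34 at 21 mo. Its mean fell at each step and by 1.02 in all (SE 0.16, adjusted p = 0.0346), just past 2-fold. Mki67 lost its call when any 1 array of 2 or 6 mo or 21 mo B was left out, through its adjusted p (0.0723 to 0.134), and without 12 mo A through its fold (−0.99). With both 12 mo arrays left out it fell by 1.02 and was called.

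Other genes were just outside the threshold. Cenpa stood at 11.03 and 11.38 at 2 mo and at 9.91 and 10.04 at 21 mo (−1.21, SE 0.23, adjusted p = 0.0506). Cdca3 had an adjusted p of 0.0437 but changed by −0.81, under 2-fold and at readings below 4. The licensing pair Cdt1 and its inhibitor Gmnn changed by −1.29 (SE 0.36, adjusted p = 0.113) and −1.14 (SE 0.30, adjusted p = 0.101). The other probe sets of Cdt1 showed no such fall, at 0.05 (adjusted p = 0.920) and −0.08 (adjusted p = 0.704). Cdk1 was 0.98 lower (SE 0.26, adjusted p = 0.102), Pcna 0.83 higher (SE 0.65, adjusted p = 0.583) and Mcm2 differed by −0.03 (adjusted p = 0.649). The second probe set of Mcm2 gave −0.78 (adjusted p = 0.542).

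Nusap1 moved the other way, from 4.04 and 4.20 at 2 mo and 4.001 and 4.229 at 6 mo to 6.72 and 5.07 at 12 mo and 6.93 and 6.08 at 21 mo (2.69, SE 0.63, adjusted p = 0.0809). Its 21 mo arrays lay above the 2 and 6 mo arrays and still below WBM. It was called without 12 mo A (2.47, adjusted p = 0.0203), and also when both 12 mo arrays were left out (2.38, adjusted p = 0.0283). Its second probe set, which reads low in WBM too, gave −0.24 (adjusted p = 0.242).

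**Figure D4:**
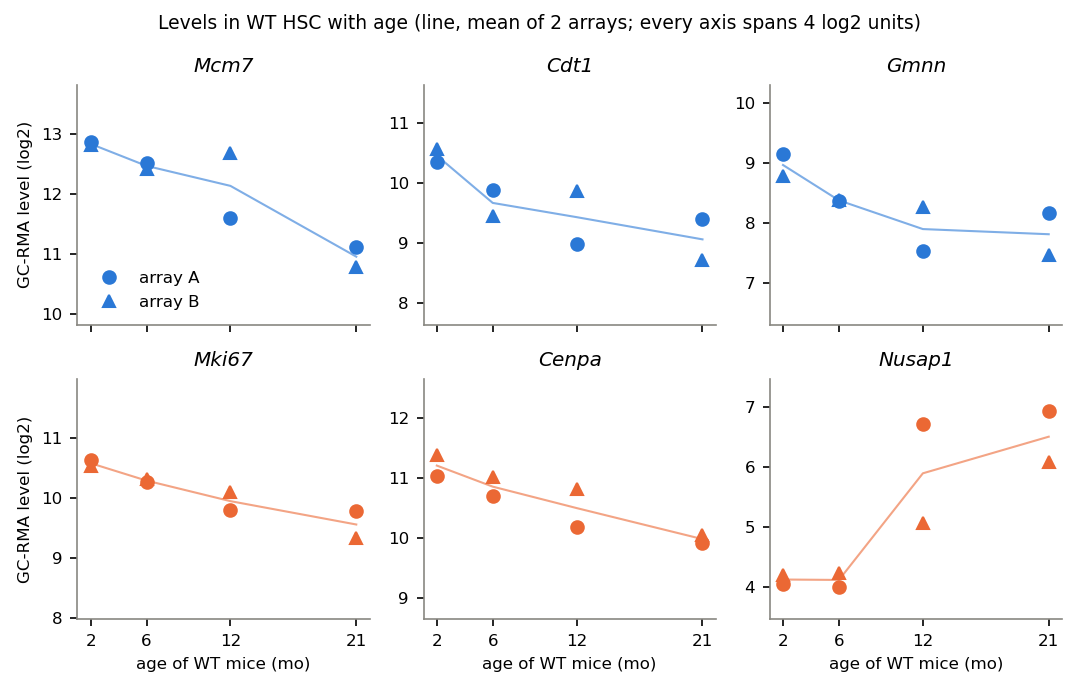
Log2 GC-RMA level in WT HSC against age in months for 3 licensing genes (Mcm7, Cdt1 and Gmnn, blue) and 3 mitotic genes (Mki67, Cenpa and Nusap1, orange). Points are arrays A (circle) and B (triangle), the line joins their means, and every axis spans 4 log2 units. The mean of Mcm7 goes from 12.84 at 2 mo to 10.96 at 21 mo, and that of Nusap1 from 4.12 to 6.50.

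Small declines were common among the 41 genes. Both 21 mo arrays lay below both 2 mo arrays for 27 of 41 genes, against 49.3% of all genes, and group means fell at each of the 3 age steps for 13 genes (31.7%), against 11.6% of all genes. The 13 were the licensing genes Mcm3, Mcm6, Mcm7, Cdt1 and Gmnn, the nucleotide gene Tyms, and the mitotic genes Ccna2, Ccnb2, Cdca3, Bub1b, Pttg1, Cenpa and Mki67. Means rose at each step for 2 genes, Mcm5 and Birc5 (4.88%, against 8.70% of all genes). The fitted change was negative for all 8 mitotic cyclins and kinases, with a median of −0.52, and none of the 8 passed. Of these 8, 5 read below 5 on every HSC array. It was negative for 8322 of the 12393 genes read. Among the 4252 genes at 7 or above on both WBM arrays it was negative for 1949, with a median of 0.08. For 1465 of these 4252, both 21 mo arrays lay below both 2 mo arrays. For Aurka the group means were nearly level, at 3.87 at 2 mo and 3.89 at 21 mo, and the arrays overlapped. Probe sets can disagree here: Mcm6 gave −0.50 on the one read and 1.03 on its other (adjusted p = 0.337). Rrm2 gave 0.28 on the x type probe set that was read (adjusted p = 0.765). On another it rose by 1.19 (adjusted p = 0.0346), past the threshold, and on the last it gave 0.07 (adjusted p = 0.874).

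Of the 41 other origin and fork genes 1 fell with age, near the share of all genes that fell (2.04%). It was Pola2, a subunit of the polymerase α-primase complex, which went from 6.36 and 6.02 to 4.18 and 3.87 (−2.16, adjusted p = 0.0362). Of the 66 other genes of mitosis 3 fell: the cytokinesis kinase Cit (−2.48), the spindle protein Tacc3 (−2.35) and the midzone kinesin Kif23 (−1.66). None of these lists had a gene that rose (1.46% of all genes rose). Among the 14 regulators E2f5, which works with the RB relatives, rose from 6.00 and 6.62 to 8.07 and 8.20 (1.83, adjusted p = 0.0382).

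Several measures moved with age beside these genes. The 5′ control probe set for 18S ribosomal RNA read 10.91 and 10.88 at 2 mo, 11.19 and 8.28 at 6 mo, 4.66 and 9.68 at 12 mo and 4.84 and 5.44 at 21 mo. Of 12 neutrophil markers 2 rose, of 7 monocyte markers 3 rose and 1 fell, of 12 HSC markers 1 rose and of 10 B lineage markers 1 fell. Of all genes, 1.46% rose and 2.04% fell. The summed neutrophil signal was 10.78 and 10.13 at 2 mo and 12.18 and 10.96 at 21 mo, and the summed monocyte signal 10.89 and 10.94 and then 11.75 and 11.93. The fitted change was positive for all 12 neutrophil markers, with a median of 0.99, and for 4071 of the 12393 genes read. Both 21 mo arrays lay above both 2 mo arrays for 7 of the 12 (2623 of the 12393 genes). The arrays of Ltf, S100a8 and S100a9 overlapped, and the mean of Camp was 6.49 at 2 mo and 6.25 at 21 mo. Ngp went from 7.22 and 7.40 at 2 mo to 10.60 and 9.11 at 21 mo, Lcn2 from 4.21 and 2.90 to 7.10 and 6.18 and Mpo from 2.59 and 2.53 to 3.83 and 5.58. Elane read 2.18 to 2.31 on the WT HSC arrays and Mmp8 2.16 to 3.65. The part of these measures in the age differences was not tested.

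The 2 p53 mutants were compared with each other and with WT HSC at 12 mo, which asks whether p53 dose or activity goes with a shift of the division genes. The comparisons share arrays with each other, so each is given by its own values. Between p53+/m and p53+/- 1 of 41 genes was higher in p53+/m, Pttg1 (0.0888% of all genes were higher), and none was lower in limma (0.129% of all genes were), where 2 were at 2-fold with an unadjusted p under 0.05 (1.84% of all genes were). The median difference was −0.19 for S-phase genes and 0.01 for mitotic genes.

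Pttg1 stood at 10.05 and 9.26 in p53+/- HSC, at 12.19 and 12.15 in p53+/m HSC and at 11.04 and 11.75 in WT HSC of 12 mo. The p53+/- arrays were the lowest of all 14 arrays for this gene and the p53+/m arrays the highest. Pttg1 was 2.52 higher in p53+/m than in p53+/- (SE 0.29, adjusted p = 0.03001), or 5.73-fold. Its other 2 probe sets differed by 2.56 (adjusted p = 0.0576) and 2.37 (adjusted p = 0.196), and were likewise lowest in p53+/-, with means of 4.70 and 5.75 against 6.87 and 7.64 in WT. Against WT, Pttg1 was 1.74 lower in p53+/- (SE 0.29, adjusted p = 0.110) and 0.78 higher in p53+/m (SE 0.29, adjusted p = 0.381), neither past the threshold. Without p53+/- A, the array that stood apart, the p53+/m and p53+/- difference was 2.91, and without p53+/- B it was 2.12, both called. It was also called without WT 12 mo A or B and lost without any 1 of the other 8 HSC arrays (adjusted p = 0.0626 to 0.0732).

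Mcm6 was the 1 gene that was lower in p53+/m than in WT (0.307% of all genes were lower), and none was higher (0.137% of all genes were). It stood at 9.28 and 8.99 in p53+/m HSC, at 11.16 and 10.46 in WT and at 10.58 and 10.68 in p53+/-. The p53+/m arrays were the lowest of all 14 arrays. The difference from WT was −1.67 (SE 0.22, adjusted p = 0.0309), and that from p53+/- was −1.49 (SE 0.22, adjusted p = 0.0580). The call was lost when any 1 HSC array other than the WT 12 mo arrays was left out, and kept without WT 12 mo A (−1.32) or B (−2.02). This probe set is also of the x type, and the other probe set of Mcm6 gave −0.94 against WT (adjusted p = 0.729), at 8.05 and 8.99.

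No other licensing gene passed in this comparison. Over the whole set, the median difference of p53+/m from WT was −0.54 for S-phase and −0.32 for mitotic genes. By limma, 10 of the 41 genes had an unadjusted p under 0.05 (11.5% of all genes had). Both p53+/m arrays lay below both WT arrays for 19 of the 41 (16.3% of all genes) and above for 6 (1330 of the 12393 genes). The 9 licensing genes had a median difference from WT of −1.02, against −0.01 for all genes (−0.006). That median is the value of Mcm4, read on a probe set of the x type. The other probe set of Mcm4 gave −0.31 (adjusted p = 0.830). The median was not read without the WT 12 mo arrays. Both p53+/m arrays lay below both WT arrays for Mcm6 and 5 more of the 9 (Mcm2, Mcm4, Mcm5, Cdc6 and Gmnn), which held for 16.3% of all genes. For Mcm2 the arrays were close, at 5.23 and 5.03 in p53+/m and 5.40 and 5.375 in WT. The arrays of the genotypes overlapped for Mcm3 (−0.47), Cdt1 (−0.08) and Mcm7 (0.31). Mcm5 showed the widest range, at 2.64 and 1.99 in p53+/m, 3.31 and 5.74 in p53+/- and 6.49 and 2.93 in WT. Gmnn stood at 6.59 and 6.54 in p53+/m, 6.12 and 7.46 in p53+/- and 7.54 and 8.27 in WT. Cdc6 stood at 6.32 and 5.29 in p53+/m and at 7.82 and 6.52 in WT (−1.37, SE 0.56, adjusted p = 0.465). Without WT 12 mo A, which leaves 1 WT array at that age, the differences from WT were −1.65 for Ccnb2, 1.74 for Pcna and 1.12 for Aurka. Without WT 12 mo B that of Nusap1 was −2.46.

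Between p53+/- and WT no gene of the 41 passed in limma in either direction (0.113% of all genes were lower and 0.0807% higher), and 6 had an unadjusted p under 0.05 (8.7% of all genes had). The median difference from WT was −0.055 for S-phase and −0.39 for mitotic genes, against −0.02 for all genes. Both p53+/- arrays lay below both WT arrays for 13 of the 41 genes (2737 of the 12393 genes) and above for 0 (968). The genes with the smallest p-values were Pttg1 and Ccnb2 among mitotic genes and Gmnn and Rrm2 among S-phase genes. Ccnb2 stood at 1.70 and 1.76 in p53+/-, 1.81 and 1.75 in p53+/m and 2.44 and 3.43 in WT (−1.20, SE 0.28, adjusted p = 0.206 for p53+/- and −1.16, adjusted p = 0.146 for p53+/m), all at the low end of the scale. Rrm2 stood at 6.84 and 9.06 in p53+/- and at 9.35 and 9.66 in WT (−1.55, SE 0.65, adjusted p = 0.6002), a difference that came mostly from array A. Gmnn was 1.11 lower (SE 0.46, adjusted p = 0.6002). Calls appeared when 1 array was left out. Without WT 12 mo A, Pttg1 (−2.09) and Ccnb2 (−1.70) were lower and Pcna (1.51) and Aurka (1.17) higher in p53+/-. Without p53+/- A Pttg1 was lower (−2.13), and without p53+/- B Rrm2 was (−2.66).

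Proliferation genes read in every comparison did not pass between genotypes. Mki67 stood at 8.92 and 9.48 in p53+/-, 9.99 and 9.11 in p53+/m and 9.80 and 10.10 in WT, with differences from WT of −0.76 (adjusted p = 0.611) and −0.41 (adjusted p = 0.833). Cdk1 differed from WT by 0.29 in p53+/- and 0.65 in p53+/m, Pcna by 0.72 and 0.95 and Mcm2 by −0.05 and −0.25, and none passed. Between the mutants, the log2 differences of Mki67, Cdk1, Pcna and Mcm2 were 0.35, 0.36, 0.23 and −0.20. The second probe set of Mcm2 gave −1.82 between the mutants (adjusted p = 0.771). Against WT it gave −1.62 in p53+/m (adjusted p = 0.763) and 0.20 in p53+/-. No other S-phase, mitosis or regulator gene passed in limma in any of the 3 genotype comparisons. These were 41 origin and fork genes, 66 genes of mitosis and 14 regulators. At an unadjusted p under 0.05, 5, 6 and 1 of them differed between the mutants (10.1% of all genes did), 6, 10 and 2 between p53+/m and WT (11.5%), and 7, 14 and 1 between p53+/- and WT (8.7%). The S-phase median of an array was 8.40 and 8.90 in WT at 12 mo, 6.71 and 8.36 in p53+/- and 7.48 and 7.29 in p53+/m. The summed neutrophil signal was 10.21 and 11.08 in WT, 9.28 and 8.67 in p53+/- and 8.99 and 10.52 in p53+/m, with no marker of another cell type called. The 18S 5′ control read 4.66 and 9.68 in WT, 8.925 and 7.965 in p53+/- and 5.71 and 7.18 in p53+/m. The part of both in these values was not tested.

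**Figure D5:**
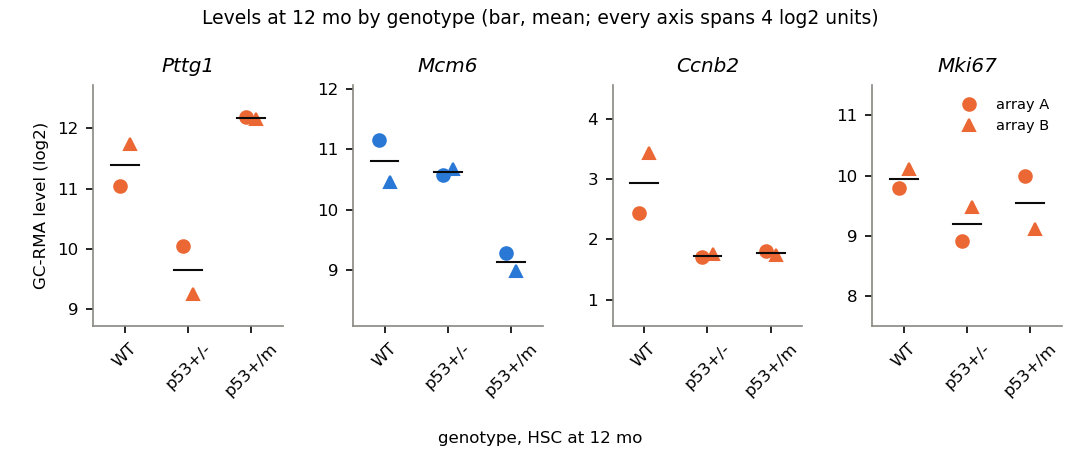
Log2 GC-RMA level at 12 mo in WT, p53+/- and p53+/m HSC for Pttg1, Mcm6, Ccnb2 and Mki67. Points are arrays A (circle) and B (triangle), bars are means, and every axis spans 4 log2 units. Pttg1 is lowest in p53+/- (mean 9.65), Mcm6 is lowest in p53+/m (mean 9.14), and Mki67 overlaps between p53+/m and each of the other genotypes.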

How the data were processed

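Levels were measured on 14 Affymetrix MOE430A arrays. Images were read with MAS 5.0, and the authors deposited log2 GC-RMA values, corrected for background by probe GC content and normalized between arrays. The GC-RMA version, and whether 1 run covered all arrays, is not given in the sources used here. Only 2 arrays per group limit the precision. The ages are those of the sample titles, since a strain label lists 2 mo throughout.

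After 64 controls were left out, 22626 probe sets were fitted with lmFit and eBayes (limma 3.58.1, R 4.3.3) and adjusted by Benjamini-Hochberg, and 20380 of them carry 1 symbol. A gene was called at an adjusted p under 0.05 and 2-fold. WBM was compared with HSC over the 10 WT arrays, age was a quadratic trend over the 8 WT HSC arrays (21 minus 2 mo of the trend), and genotypes used the 12 HSC arrays. The genes and lists were chosen with earlier results of these data known. Full statistics went to every called gene where 8 or fewer were called, and otherwise, shown for 2 mo, to the 4 S-phase and 6 mitotic genes with the largest differences. Mki67, Cdk1, Pcna and Mcm2 were always given. Where none was called, the 2 genes of each kind with the smallest p were given, and from other lists up to 4 called genes per direction. The fits were tested on simulated data. Alternatives varied the arrays, replicate block, normalization, low-value filter, probe set, variance prior, fold threshold and form of the trend.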

Additional observations from a re-analysis of the deposited data

How the results depend on the processing

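The counts of genes lower in HSC than in WBM stayed within 1.5 times of those reported in every alternative (29 to 34 at 2 mo), and none was higher in any. Cdca3 lost its call against WBM at each age when the median of its probe sets was taken (−0.03 at 2 mo), and Pcna at 2 mo lost it in 9 of 18 alternatives. With few genes past the threshold, the age and genotype counts changed easily. Counts over all genes changed too, also whenever 1 array was left out. The 253 of 12393 that fell with age were 109 with the replicate block, 191 with quantile normalization and 314 with the trended prior. They were 154 with group means over 8 arrays, 430 over 12 HSC arrays and 725 of 6383 with the filter. With the 12 mo arrays only, 0 of all genes were called in each genotype comparison. The 2 genes that fell with age numbered 0 to 5 when 1 array was left out (5 without 12 mo B), 5 with a filter on low values (Mcm7, Mki67, Cdt1, Gmnn and Cenpa), 1 with the replicate block (Cenpa), quantile normalization, the trended prior or group means over 12 HSC arrays, and 0 with group means over 8. The 0 that rose with age became 1 (0 to 1 when 1 array was left out) with the filter, the median of probe sets (Rrm2), group means over 12 HSC arrays and without both 12 mo arrays, the last chosen after seeing the data. Mcm7 failed without any 1 array of 2, 6 or 21 mo, and Mki67 without any 1 of 2 or 6 mo, 12 mo A or 21 mo B. Mcm7 changed by −1.99 to −1.28 and Mki67 by −1.23 to −0.80 over all alternatives.

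Correlations of the A minus B differences between groups were −0.31 to 0.16 (2 of 21 pairs over 0.1). They show no common pairing of the arrays by the letters A and B, but could miss a weak one. With the letters as a block, 32 genes were lower in HSC of 2 mo (Pcna lost). The block changed only the 2 further counts given here, those of age and of Pttg1. Pttg1 between the mutants kept 2.12 to 2.91, and its count of 1 became 0 with the replicate block, quantile normalization, the median of probe sets or the 12 mo arrays only, and was 0 to 1 when 1 array was left out (0 without any array of 2, 6 or 21 mo or either p53+/m array). The 0 lower in p53+/m than in p53+/- became 1 (Mcm6) with quantile normalization or all 14 arrays, and 0 to 1 without single arrays (1 without 12 mo A or B). The 1 lower in p53+/m than in WT (Mcm6, −2.03 to −1.31) became 0 with the median of probe sets, the trended prior or the 12 mo arrays only, and 0 to 2 without single arrays (0 without any but the WT 12 mo arrays). Counts of 0 higher in p53+/m than in WT, lower in p53+/- and higher in p53+/- changed only without single arrays, WT 12 mo A among them. Those fits leave 1 array in a group, and the counts over all genes changed in them too. Directions of uncalled genes turned when single arrays were left out. Between the mutants, Mki67 ranged from −0.089 to 0.789, Cdk1 from −0.201 to 0.92 and Mcm2 from −0.533 to 0.128. For p53+/m against WT Mki67 ranged from −0.845 to 0.034. For p53+/- against WT Cdk1 ranged from −0.271 to 0.85, Pcna from −0.064 to 1.512 and Mcm2 from −0.381 to 0.28, with 0.09 under quantile normalization and 0.074 with the median of probe sets. The cause of these changes was not tested.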
